A study of Rattus norvegicus with 34 samples.

Results

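The left ventricles (LV) of rats with a large myocardial infarction (L-MI) were compared with those of rats with a small infarction (S-MI), across all named transcript clusters of the array. The arrays were taken by their titles, 5 of L-MI and 6 of S-MI, which are 11 of the 34 arrays of the series and 11 of its 23 LV arrays. In male Wistar rats the proximal left coronary artery was ligated, and the animals were sorted into groups by the infarct size that echocardiography showed, so that infarct size was observed and not assigned. Further LV groups used below are 6 rats with a moderate infarction (M-MI) and 6 sham-operated rats, in which the suture was not tied. All hearts were taken 2 months after the operation, the labels name no drug treatment and no genetic change in any group, and the age of the rats is not given in the sources used here. From infarcted hearts the part of the LV without visible scar was used, and from sham-operated hearts the whole LV. The label text of L-MI replicate 1 calls its ventricle compensated, as for the S-MI rats, whereas that of the other 4 L-MI hearts speaks of decompensation and heart failure, and the array was kept as L-MI by its title. This array also stood apart in atrial marker genes, whose values are given with the natriuretic peptides.

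After an infarct the surviving muscle takes over the work of the lost wall. It is known to be stretched, to enlarge, to release natriuretic peptides and to gain fibrous matrix between its cells, which fibroblasts make and macrophages help to shape. A failing ventricle is also known to lower the genes by which it burns fatty acids, its main fuel. Since the tissue beyond the scar was sampled, the comparison asks how these programmes differ between hearts that lost much and hearts that lost little muscle.

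Each array gave log2 signals of 29214 transcript clusters, each a set of probes that stands for a gene or a transcript, with array medians between 6.52 and 6.61 in LV. A transcript cluster is said to rise or fall in L-MI where its fold against S-MI was at least 1.3 and its Benjamini-Hochberg adjusted p from limma at most 0.05 over all transcript clusters. Differences given with an SE are log2 fold changes of L-MI over S-MI, on which a difference of 1 is a doubling of the signal, and signals are on the log2 scale, on which different genes cannot be compared. Genes of heart muscle gave high signals in both groups. Myh6 and Myh7, the myosin heavy chains of heart muscle, were at 12.74 ± 0.15 in L-MI and 12.97 ± 0.08 in S-MI (SD) and at 13.13 ± 0.076 in L-MI and 13.13 ± 0.074 in S-MI. Tnni3, cardiac troponin I, was at 12.82 ± 0.074 in L-MI and 12.93 ± 0.029 in S-MI. These genes do not show whether atrial tissue was present, and L-MI replicate 1 stood apart in atrial markers. Of 12 ventricular cardiomyocyte markers measured, 1 rose (Irx4, a ventricular transcription factor, log2 fold change 0.54) and none fell, with a median of -0.05. Of all transcript clusters 1.57% rose and 0.911% fell. In RNA of whole tissue, fewer cells of a type and less RNA per cell cannot be told apart.

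Of the 29214 transcript clusters, 459 rose in L-MI (1.57%) and 266 fell (0.911%), 2.48% in all. Counts over gene lists are to be read beside these shares. Folds were larger among the rises: 47 of the 459 reached a fold of 2, and 8 of the 266. The median fold was 1.46 among the rises and 1.38 among the falls, and the median log2 fold change of all transcript clusters was -0.0088. By gene, with the brightest transcript cluster standing for each, 393 of 14677 named genes rose and 199 fell. Of the 603 called transcript clusters with a name, 81 took it from the study's tables of altered genes. Those names were picked in part by the same L-MI arrays, so the counts by gene are not free of that choice. In 439 of the 725 called transcript clusters the 5 L-MI arrays did not overlap with the 6 S-MI arrays, as in 1354 of all transcript clusters (4.63%).

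The arrays of both groups came apart on the first principal component, with an exception. This component held 25.3% of the variance, with L-MI scores between 14.3 and 154 and S-MI scores between -136 and 46.4. S-MI replicate 3 lay inside the range of L-MI, and S-MI replicates 4 and 5, at -136 and -118, lay farthest from it. Without S-MI replicates 4 and 5, 362 transcript clusters rose and 172 fell. Among the L-MI arrays, replicate 2 was the nearest to S-MI: it was the lowest of the 5 in 300 of the 459 rises and the highest in 165 of the 266 falls. Replicate 1, with the deviating label text, had a mean shift of 0.70 over the rises, against 0.40 to 0.80 in the other L-MI arrays, and of -0.52 over the falls, against -0.66 to -0.36. These transcript clusters were called with replicate 1 counted as L-MI, so a shift to the L-MI side was in part fixed in advance.

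**Figure D1:**
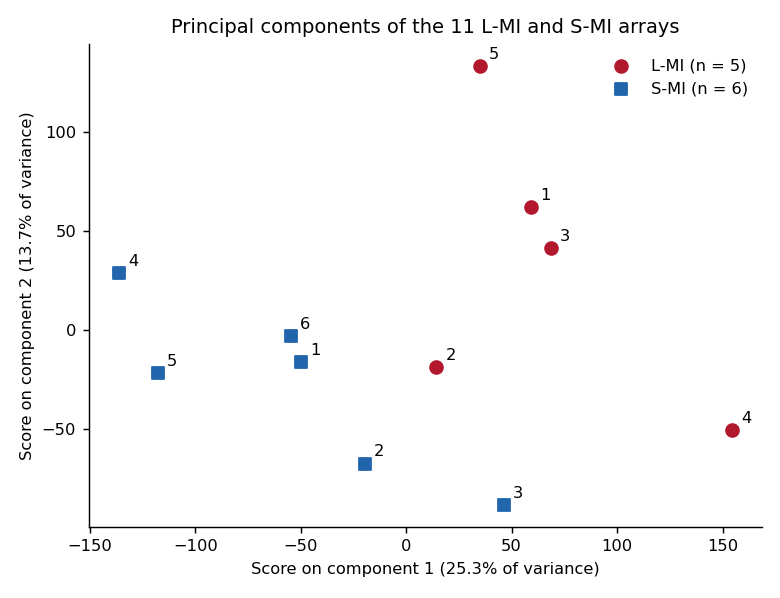
Scores of the 5 L-MI (red circles) and 6 S-MI (blue squares) arrays on the first component (horizontal, 25.3% of the variance) and the second (vertical, 13.7%), computed over all transcript clusters scaled to the same variance; numbers are replicates. S-MI replicate 3, at 46.4 on the first component, lies within the range of L-MI.

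Thbs4, a thrombospondin of stretched muscle and tendon, was at 9.31, 7.58, 9.23, 8.54 and 9.41 in the L-MI hearts, against 5.88 to 6.51 with a median of 6.15 in the S-MI hearts. Its lowest L-MI array, replicate 2, still lay above every S-MI array (log2 fold change 2.64, SE 0.24, adjusted p = 8.33e-07). The name of Thbs4 comes from the study's tables of genes altered in L-MI, not from the platform annotation, so this gene was in part picked by the same L-MI arrays.

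Pcp4, a small peptide that modulates calmodulin, was at 10.16, 8.61, 8.70, 8.79 and 10.35 in the L-MI hearts, against 6.59 to 7.26 with a median of 6.96 in the S-MI hearts (log2 fold change 2.39, SE 0.24, adjusted p = 2.02e-06). Spp1, osteopontin, a cytokine bound to matrix and made by macrophages among others, was at 7.83, 8.34, 7.46, 7.85 and 10.31 in the L-MI hearts, against 5.96 to 6.78 with a median of 6.33 in the S-MI hearts. L-MI replicate 5 stood far above the other L-MI arrays for this gene, and without it the log2 fold change was 1.51 in place of 2.00. Further large rises were those of Sfrp2 and Sfrp1, secreted proteins that bind Wnt ligands, with 1.95 (SE 0.20, adjusted p = 2.78e-06) and 1.86 (SE 0.19, adjusted p = 2.57e-06), and of Hamp, the iron hormone hepcidin, with 1.76 (SE 0.34, adjusted p = 0.00194). Ncam1, an adhesion molecule, had 1.61 (SE 0.36, adjusted p = 0.00726) and Myl1, a myosin light chain of fast skeletal muscle, 1.34 (SE 0.22, adjusted p = 5.41e-04). None of these genes overlapped between the groups.

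Cyp2e1, a cytochrome P450 that oxidizes small molecules such as ethanol and fatty acids, had the largest fall, to 6.10, 6.66, 5.18, 6.23 and 5.89 in the L-MI hearts, against 7.74 to 8.998 with a median of 8.71 in the S-MI hearts (log2 fold change -2.54, SE 0.41, adjusted p = 4.03e-04). The highest L-MI array was below the lowest S-MI array. Ephx2, the soluble epoxide hydrolase, which breaks down epoxides of fatty acids, had -1.12 (SE 0.24, adjusted p = 0.00514), and Gamt, an enzyme of creatine synthesis, -0.80 (SE 0.13, adjusted p = 3.92e-04). Of 27 measured genes of detoxification and redox balance, 3 fell (Cyp2e1, Ephx2 and Cyp4b1, another P450, named after its value was seen, with a log2 fold change of -0.41 that was under the threshold without S-MI replicate 4 or L-MI replicate 1 or 5, at -0.37, -0.37 and -0.37) and 2 rose, with a median of 0.054. The rises were Gpx3, a secreted glutathione peroxidase (log2 fold change 0.51, SE 0.083, adjusted p = 4.29e-04), and Cybb, the NADPH oxidase subunit of phagocytes (log2 fold change 0.62, SE 0.11, adjusted p = 8.82e-04).

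The promoters of 5 genes with large differences are shown because these genes were among those that moved most. Each sequence holds the 250 bases before the RefSeq transcript start in the build GRCr8, read 5′ to 3′ along the gene: Thbs4 at chr2:25760346-25760595, minus strand; Postn at chr2:140677811-140678060, plus strand; Cyp2e1 at chr1:205269717-205269966, plus strand; Pcp4 at chr11:49269936-49270185, plus strand; and Spp1 at chr14:5619805-5620054, minus strand. Capitals mark matches, on either strand, to CATTCC (the M-CAT motif of TEAD factors), CAGACA (the SMAD motif), TATAAA (the TATA box), TGACTCA (the AP-1 motif) or the CArG box; no 2 marked matches overlap.
Thbs4: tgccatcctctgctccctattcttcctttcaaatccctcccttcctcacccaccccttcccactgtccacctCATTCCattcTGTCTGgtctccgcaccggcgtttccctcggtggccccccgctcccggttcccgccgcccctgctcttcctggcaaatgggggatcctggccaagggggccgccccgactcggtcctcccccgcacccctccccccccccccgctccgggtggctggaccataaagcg
Postn: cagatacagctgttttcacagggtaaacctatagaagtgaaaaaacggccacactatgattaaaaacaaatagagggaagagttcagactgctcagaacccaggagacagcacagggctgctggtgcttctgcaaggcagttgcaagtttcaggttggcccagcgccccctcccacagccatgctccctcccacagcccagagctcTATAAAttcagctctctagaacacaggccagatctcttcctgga
Cyp2e1: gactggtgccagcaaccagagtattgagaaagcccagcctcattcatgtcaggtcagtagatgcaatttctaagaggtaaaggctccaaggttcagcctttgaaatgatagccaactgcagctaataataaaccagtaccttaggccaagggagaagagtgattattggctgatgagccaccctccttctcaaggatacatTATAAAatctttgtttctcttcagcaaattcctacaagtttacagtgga
Pcp4: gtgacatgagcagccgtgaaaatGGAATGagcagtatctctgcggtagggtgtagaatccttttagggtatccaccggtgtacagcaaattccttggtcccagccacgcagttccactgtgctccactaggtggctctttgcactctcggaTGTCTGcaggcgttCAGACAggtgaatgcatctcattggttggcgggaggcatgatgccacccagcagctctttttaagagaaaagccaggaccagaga
Spp1: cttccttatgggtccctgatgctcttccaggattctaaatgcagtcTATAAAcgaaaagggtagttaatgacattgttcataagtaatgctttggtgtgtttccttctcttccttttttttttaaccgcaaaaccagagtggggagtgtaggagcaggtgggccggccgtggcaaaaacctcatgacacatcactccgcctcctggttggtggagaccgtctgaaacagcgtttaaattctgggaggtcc
Thbs4 held an M-CAT and a SMAD match and Pcp4 an M-CAT and 2 SMAD matches, with the M-CAT match beginning 178 bases before the start in Thbs4 and 227 in Pcp4. Postn and Cyp2e1 held TATAAA, which began 44 and 49 bases before the start, and Spp1 held it farther out, at 204 bases. None of the 5 windows held an AP-1 or CArG match. Among 24206 RefSeq promoters of the same length, 11.6% held CATTCC, 16.5% CAGACA, 13.3% TATAAA, 3.97% TGACTCA and 1.51% a CArG box. Of the genes that rose, 259 of 393 had a promoter entry, and of those that fell, 137 of 199, too few for a share over the called genes.

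**Figure D2:**
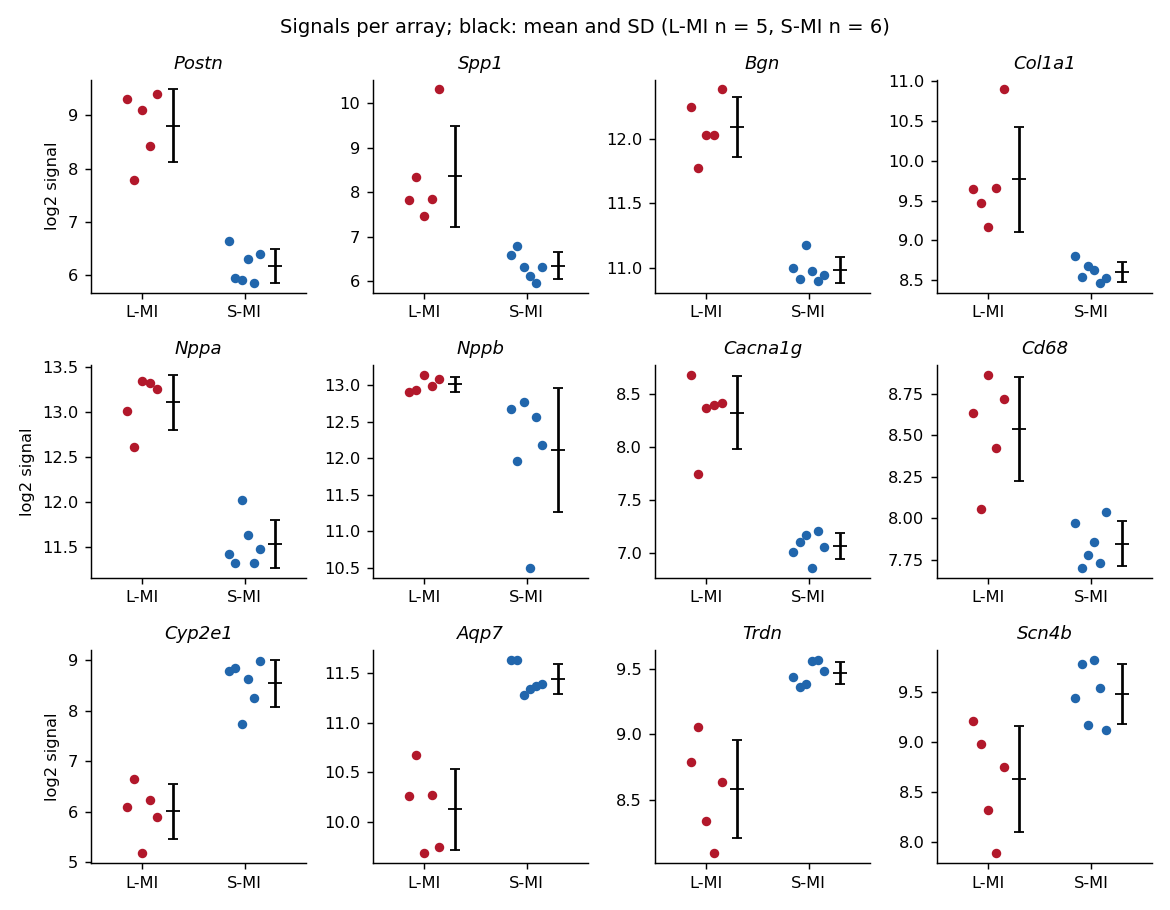
Log2 signals (vertical axes) of 12 genes in the 5 L-MI arrays (red) and the 6 S-MI arrays (blue); each point is an array, the black bar the mean and the whiskers the SD. Scn4b is the only gene drawn here whose groups overlap, and the lowest Nppb point is S-MI replicate 4, at 10.50.

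Many genes of the extracellular matrix rose. Of 17 measured matricellular genes, whose products act on cells from within the matrix, 11 rose and 1 fell, with a median log2 fold change of 0.74. Of 25 genes of proteoglycans and elastic fibres 17 rose, of 12 fibrillar and other collagen chains 7 rose, and of 20 genes that process and cross-link collagen 8 rose, none of these falling, with medians of 0.53, 0.49 and 0.30. Over all transcript clusters the share of rises was 1.57% and the median -0.0088. The counts of rises were 9, 15, 6 and 7 when S-MI replicates 4 and 5 were left out, and without L-MI replicate 1 they were 11, 14, 7 and 8. As a list level, the mean over members of the log2 signal relative to the S-MI mean, the matricellular genes were at 0.57 to 1.29 in the L-MI arrays, against -0.14 to 0.12 in the S-MI arrays. For proteoglycans and elastic fibres this level was 0.33 to 0.71 in the L-MI arrays, against -0.10 to 0.065 in the S-MI arrays, and for collagen chains 0.40 to 0.95 in the L-MI arrays, against -0.049 to 0.06 in the S-MI arrays. Every L-MI array lay above every S-MI array on each of these lists.

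Among the matricellular genes, Postn, periostin, which activated fibroblasts secrete, was at 9.31, 7.80, 9.10, 8.43 and 9.41 in the L-MI hearts, against 5.85 to 6.65 with a median of 6.13 in the S-MI hearts (log2 fold change 2.63, SE 0.23, adjusted p = 8.10e-07). Fn1, fibronectin, the adhesive protein of provisional matrix, was at 10.11, 9.58, 9.997, 10.08 and 10.57 in the L-MI hearts, against 8.53 to 9.04 with a median of 8.72 in the S-MI hearts (log2 fold change 1.32, SE 0.16, adjusted p = 2.97e-05). Ccn2, which encodes connective tissue growth factor, and its relative Ccn5 had 1.43 (SE 0.24, adjusted p = 5.32e-04) and 1.54 (SE 0.15, adjusted p = 1.09e-06). All 4 rose without overlap between the groups. Comp, cartilage oligomeric matrix protein, had 1.02 (SE 0.15, adjusted p = 1.30e-04) and the secreted glycoprotein Fstl1 0.74 (SE 0.081, adjusted p = 6.84e-06). The gene that fell was Vtn, vitronectin, an adhesive protein of plasma, at 9.04, 9.23, 9.05, 9.05 and 9.15 in the L-MI hearts, against 9.45 to 9.67 with a median of 9.54 in the S-MI hearts (log2 fold change -0.45, SE 0.074, adjusted p = 4.55e-04). Thbs4, described above, is not in this count.

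Of the collagens, Col1a1, the main chain of fibrillar collagen I, was at 9.64, 9.47, 9.16, 9.66 and 10.90 in the L-MI hearts, against 8.46 to 8.81 with a median of 8.58 in the S-MI hearts (log2 fold change 1.16, SE 0.18, adjusted p = 3.32e-04). L-MI replicate 5 was the highest, and without this array the log2 fold change was 0.88 (adjusted p = 9.18e-06). In a two-sample test without moderation on the 11 arrays, Col1a1 lost its call. Col1a2, the partner chain, had 0.72 (SE 0.12, adjusted p = 5.71e-04) and Col3a1, the chain of collagen III, 0.58 (SE 0.088, adjusted p = 2.17e-04). Col8a1, which forms networks in vessel walls, was at 7.94, 7.36, 7.89, 7.55 and 8.01 in the L-MI hearts, against 6.40 to 6.82 with a median of 6.67 in the S-MI hearts, a fold of 2.17, close to that of Col1a1. Col12a1 and Col14a1, collagens that lie on the surface of fibrils, had 1.40 (SE 0.16, adjusted p = 1.80e-05) and 0.80 (SE 0.11, adjusted p = 7.57e-05). Col18a1, of basement membranes, had 0.48 (SE 0.074, adjusted p = 2.34e-04), and it took its name from the study's tables. Col5a1, which starts fibrils, passed the adjusted p (1.74e-04) at a fold of 1.26, under the fold threshold.

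Genes of enzymes that act on collagen rose as well. Plod2, which hydroxylates the lysines from which cross-links form, was at 9.07, 8.70, 8.97, 8.66 and 9.34 in the L-MI hearts, against 7.90 to 8.11 with a median of 8.05 in the S-MI hearts (log2 fold change 0.92, SE 0.11, adjusted p = 2.57e-05). Loxl1 and Loxl3, lysyl oxidase relatives that make cross-links, had 1.14 (SE 0.15, adjusted p = 7.96e-05) and 0.50 (SE 0.061, adjusted p = 2.97e-05), and Pcolce, which speeds the cleavage of procollagen, 0.60 (SE 0.076, adjusted p = 4.03e-05). All 4 were above every S-MI array in all 5 L-MI hearts.

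Bgn, the proteoglycan biglycan, had the smallest adjusted p among the named genes described here, at 12.24, 11.77, 12.03, 12.03 and 12.38 in the L-MI hearts, against 10.89 to 11.17 with a median of 10.96 in the S-MI hearts (log2 fold change 1.11, SE 0.092, adjusted p = 6.94e-07). Its spread within each group was small beside the difference, 12.09 ± 0.23 in L-MI and 10.98 ± 0.10 in S-MI (SD, n = 5 and 6). Fmod, fibromodulin, which binds collagen fibrils, was at 7.54, 7.20, 6.94, 6.83 and 8.15 in the L-MI hearts, against 5.79 to 6.37 with a median of 5.98 in the S-MI hearts, a fold of 2.44. Ltbp2, which binds fibrillin, had 1.41 (SE 0.13, adjusted p = 8.33e-07), Mfap5, a microfibril protein, 0.88 (SE 0.11, adjusted p = 2.97e-05) and Aspn, asporin, 0.77 (SE 0.10, adjusted p = 4.79e-05). Eln, elastin, was near the thresholds at 0.40 (SE 0.082, adjusted p = 0.00366): without S-MI replicate 4 or 5 or L-MI replicate 1 or 4 its fold fell under 1.3, at log2 fold changes of 0.34, 0.38, 0.34 and 0.37. Prg4, lubricin, overlapped between the groups (log2 fold change 0.60, SE 0.18, adjusted p = 0.0435), and its call was lost when any of 9 of the 11 arrays was left out, with log2 fold changes between 0.45 and 0.65 in those fits.

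Of 9 basement membrane genes measured, none passed both thresholds, against 2.48% of all transcript clusters, and their median log2 fold change was -0.008. Their list level was -0.0092 to 0.094 in the L-MI arrays, against -0.05 to 0.085 in the S-MI arrays, and these ranges overlap. Col18a1, given above with the collagens, is not on this list. Lamc1, a laminin chain, passed the adjusted p (9.37e-04) at a fold of 1.24 only, with signals of 10.85, 10.61, 10.84, 10.87 and 10.83 in the L-MI hearts, against 10.41 to 10.61 with a median of 10.46 in the S-MI hearts.

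**Figure D3:**
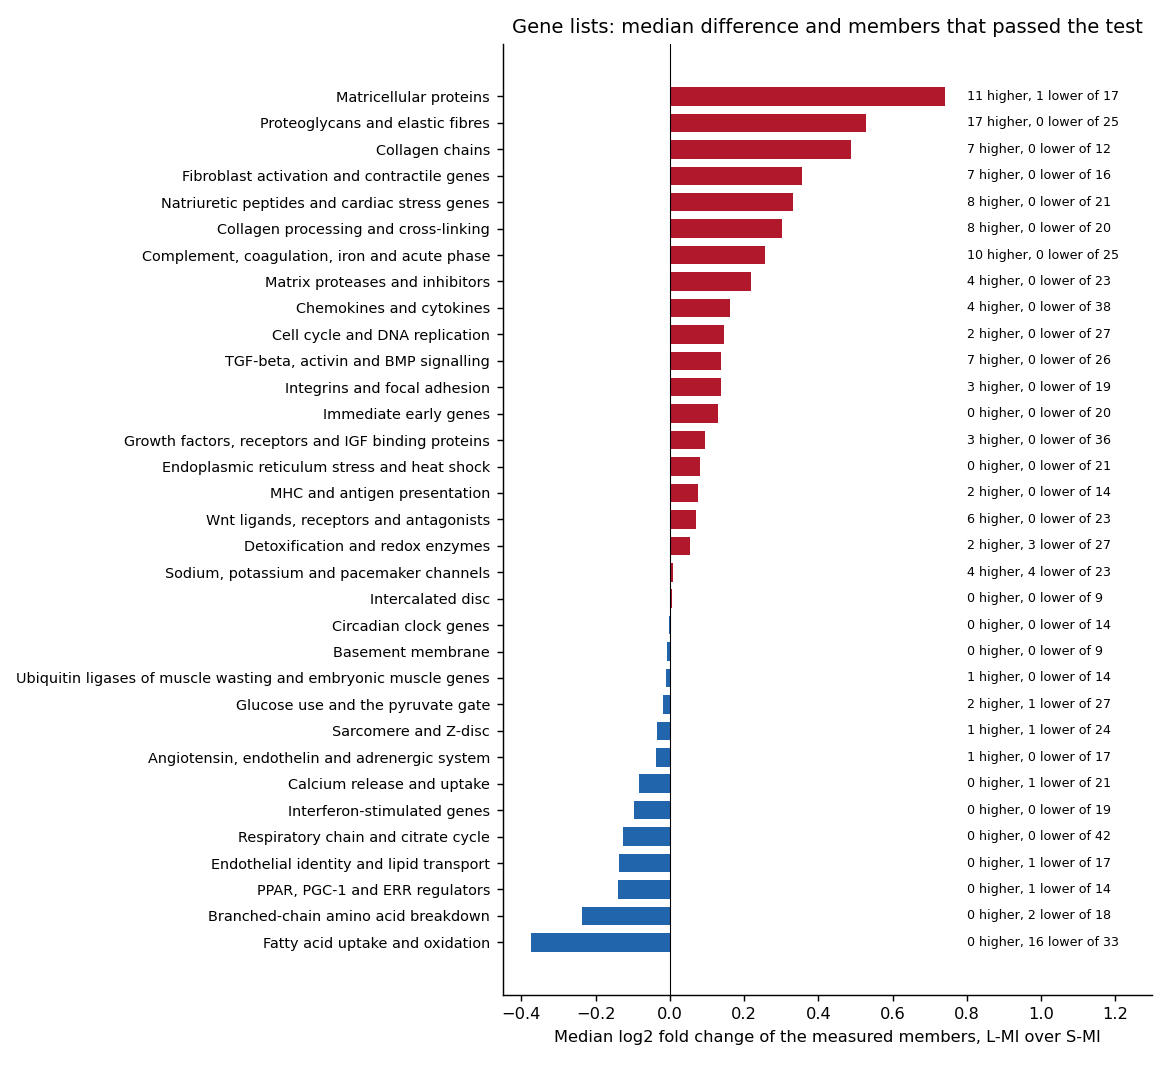
Median log2 fold change of L-MI over S-MI (horizontal) for the measured members of each of 33 gene lists (rows), red where above 0 and blue where below; the text at the right counts the members that rose and fell. Matricellular proteins stand at the top with a median of 0.74 and fatty acid genes at the bottom with -0.37.

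Of 23 measured genes whose products degrade matrix or inhibit its breakdown 4 rose, against 1.57% of all transcript clusters, and none fell, with a median of 0.22; without L-MI replicate 3, 7 rose. Of the inhibitors, Timp1 was at 10.34, 9.98, 10.25, 10.52 and 10.53 in the L-MI hearts, against 9.10 to 9.86 with a median of 9.35 in the S-MI hearts (log2 fold change 0.89, SE 0.14, adjusted p = 3.24e-04), and Timp2 had 0.49 (SE 0.073, adjusted p = 2.03e-04). Timp3 passed the adjusted p (0.0109) at a fold of 1.18 only. Timp4, an inhibitor most abundant in heart, was at -0.46 on the log2 fold scale and did not pass (SE 0.15, adjusted p = 0.0676), but did without L-MI replicate 2 (-0.61, adjusted p = 0.00537). Serpine2, a protease inhibitor that also binds matrix, had 0.94 (SE 0.13, adjusted p = 8.03e-05).

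Of the proteases, Mmp2, a gelatinase, was just past the thresholds (log2 fold change 0.39, SE 0.067, adjusted p = 6.99e-04), and its fold fell under 1.3 without S-MI replicate 2 or L-MI replicate 1 or 5 (log2 fold changes 0.37, 0.35 and 0.34). Mmp9, a gelatinase of neutrophils and macrophages, was at 6.03, 6.40, 5.70, 6.37 and 8.75 in the L-MI hearts, against 5.63 to 6.01 with a median of 5.67 in the S-MI hearts. Mmp13, a collagenase, was at 3.76, 4.38, 3.72, 4.30 and 7.03 in the L-MI hearts, against 3.56 to 3.93 with a median of 3.66 in the S-MI hearts. For both genes the mean difference on the arrays came largely from L-MI replicate 5: their log2 fold changes were 0.88 (SE 0.32, adjusted p = 0.0957) and 0.95 (SE 0.36, adjusted p = 0.11) with that array and 0.35 and 0.36 without it. In the other arrays of both groups these genes lay below the array medians of 6.52 to 6.61. By RT-qPCR the study found both near the detection limit in sham, S-MI and M-MI. It reports them substantially higher in L-MI, though its Mmp9 change was not significant. Whether the arrays could register a smaller rise in the other L-MI hearts was not tested. Without L-MI replicate 3 in its place, Mmp9 passed, at 1.12 (adjusted p = 0.0353), whereas Mmp13 did not pass without any single array. Mmp14, Mmp16 and Mmp23, proteases tied to membranes, had log2 fold changes of 0.19, 0.40 and 0.37, with adjusted p values of 0.312, 0.0509 and 0.00353 from limma. Mmp23 missed the fold threshold, Mmp16 the adjusted p and Mmp14 both. Without S-MI replicate 4 or L-MI replicate 2 or 3, Mmp16 and Mmp23 both passed, at log2 fold changes of 0.46 to 0.48 and 0.39 to 0.41, and Mmp23 also without L-MI replicate 4 (0.39). Without L-MI replicate 5 Mmp16 was at 0.26 (adjusted p = 0.159).

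Genes of growth factor signalling rose in part. Of 26 measured genes of transforming growth factor beta (TGF-beta), activin and bone morphogenetic protein signalling, 7 rose and none fell, with a median of 0.14. When S-MI replicates 4 and 5 were left out, 4 rose. Tgfb1, the main fibrogenic ligand, was at 9.83, 9.48, 9.63, 9.69 and 9.87 in the L-MI hearts, against 9.27 to 9.51 with a median of 9.30 in the S-MI hearts, a fold of 1.28 under the threshold (adjusted p = 0.00219). It passed without S-MI replicate 4 or L-MI replicate 2, at log2 fold changes of 0.38 and 0.41. Tgfb2 rose more (log2 fold change 0.79, SE 0.18, adjusted p = 0.00609), with overlapping groups. Inhba, which encodes the subunit of activin A, and Bmp6 had 0.68 (SE 0.11, adjusted p = 5.32e-04) and 0.65 (SE 0.10, adjusted p = 3.92e-04). Of 23 Wnt pathway genes 6 rose and none fell. Beside Sfrp1 and Sfrp2 these included Dkk3, a secreted glycoprotein of the Dickkopf family (log2 fold change 0.59, SE 0.10, adjusted p = 6.60e-04), and Fzd2, a Wnt receptor (log2 fold change 0.45, SE 0.078, adjusted p = 7.67e-04). The median of the list was only 0.07. Of 36 growth factor genes 3 rose, against 1.57% of all transcript clusters: Vegfd, a growth factor of lymphatic vessels, had 0.97 (SE 0.14, adjusted p = 1.13e-04) and Igfbp6, which binds insulin-like growth factors, 0.74 (SE 0.11, adjusted p = 2.34e-04), and Hbegf, a ligand of the epidermal growth factor receptor, 0.42 (SE 0.085, adjusted p = 0.00281).

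Several markers of fibroblasts rose. Of 12 fibroblast markers measured 6 rose and none fell, although 3 of these 6 are the collagen chains Col1a1, Col1a2 and Col3a1 already described. The level of the list was 0.26 to 0.72 in the L-MI arrays, against -0.085 to 0.11 in the S-MI arrays. Of 16 genes of fibroblast activation and contraction 7 rose: S100a4, a calcium-binding protein of motile cells, had 0.87 (SE 0.078, adjusted p = 8.33e-07), Thy1, a surface protein of fibroblasts, 0.91 (SE 0.13, adjusted p = 1.08e-04), and Tagln, a smooth muscle actin-binding protein, 0.57 (SE 0.12, adjusted p = 0.00383). The part of cell numbers in these differences was not tested.

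Of 18 macrophage and monocyte markers 12 rose and none fell, with a median of 0.52. Their level was 0.16 to 0.66 in the L-MI arrays, against -0.10 to 0.20 in the S-MI arrays, and the lowest L-MI array, replicate 2, lay inside the S-MI range. In the other LV arrays it was -0.34 to 0.044 in M-MI and -0.26 to -0.057 in sham. Leaving out S-MI replicates 4 and 5 gave 11 rises, and leaving out L-MI replicate 1 gave 10. Mrc1, the mannose receptor of resident macrophages, was at 9.30, 8.88, 9.35, 8.75 and 9.09 in the L-MI hearts, against 8.30 to 8.50 with a median of 8.38 in the S-MI hearts (log2 fold change 0.68, SE 0.095, adjusted p = 9.85e-05). Cd68, a lysosomal protein of macrophages, was at 8.63, 8.06, 8.87, 8.42 and 8.72 in the L-MI hearts, against 7.70 to 8.04 with a median of 7.82 in the S-MI hearts (log2 fold change 0.69, SE 0.11, adjusted p = 4.05e-04). Lyve1, a hyaluronan receptor of resident macrophages and lymphatic vessels, had 0.77 (SE 0.14, adjusted p = 8.73e-04) and Csf1r, the receptor of macrophage colony-stimulating factor, 0.59 (SE 0.093, adjusted p = 3.51e-04).

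Of 12 T cell markers 1 rose, Cd4 (log2 fold change 0.59, SE 0.10, adjusted p = 7.80e-04), which macrophages of the rat also carry. The other lists gave no call for B cells and plasma cells (7 measured), neutrophils (9) and mast cells (10), where 2.48% of all transcript clusters were called. Klrd1, a receptor of natural killer cells, was the single called gene of 11 markers of these cells: it had -0.41 (SE 0.12, adjusted p = 0.0334) at overlapping signals, and the call was lost without any of S-MI replicates 1, 4 and 6 or L-MI replicates 1, 3, 4 and 5, at log2 fold changes of -0.42 to -0.35. Endothelial markers, 8 measured, gave none either, with a median of -0.13. None of 19 interferon-stimulated genes, 20 immediate early genes and 14 circadian clock genes passed the thresholds, where 2.48% of all transcript clusters did.

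Of 25 genes of complement, coagulation, iron and the acute phase 10 rose and none fell, with a median of 0.26. Their list level was 0.14 to 0.48 in the L-MI arrays, against -0.059 to 0.11 in the S-MI arrays. Cp, ceruloplasmin, a copper protein that oxidizes iron, was at 8.78, 8.30, 8.30, 8.45 and 8.73 in the L-MI hearts, against 7.22 to 7.83 with a median of 7.38 in the S-MI hearts (log2 fold change 1.08, SE 0.10, adjusted p = 8.33e-07). Hamp was at 11.44, 10.88, 11.68, 11.46 and 11.16 in the L-MI hearts, against 8.65 to 10.49 with a median of 9.51 in the S-MI hearts. Serping1, the inhibitor of the first complement component, had 0.50 (SE 0.078, adjusted p = 3.32e-04). Of 38 chemokine and cytokine genes 4 rose, and 9 without L-MI replicate 2. Tnfrsf11b, osteoprotegerin, a decoy receptor of the tumour necrosis factor family, was at 8.07, 7.40, 7.71, 7.96 and 7.87 in the L-MI hearts, against 6.44 to 7.07 with a median of 6.68 in the S-MI hearts (log2 fold change 1.08, SE 0.12, adjusted p = 8.95e-06), and Tnfrsf12a and Cx3cr1, receptors of TWEAK and fractalkine, had 0.78 (SE 0.12, adjusted p = 2.34e-04) and 0.76 (SE 0.14, adjusted p = 0.00137). The remaining gene was Ccr1, a chemokine receptor, named after its value was seen (log2 fold change 0.45, not called without S-MI replicate 5 or L-MI replicate 1, at 0.37 and 0.39). Ptgs2, the inducible cyclooxygenase, had 1.05 (SE 0.17, adjusted p = 4.44e-04). Tspan12, a tetraspanin, passed the adjusted p (0.00958) at a fold of 1.28, under the threshold, and was lower in L-MI; without S-MI replicate 3 or 4 it passed, at -0.39 and -0.42.

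**Figure D4:**
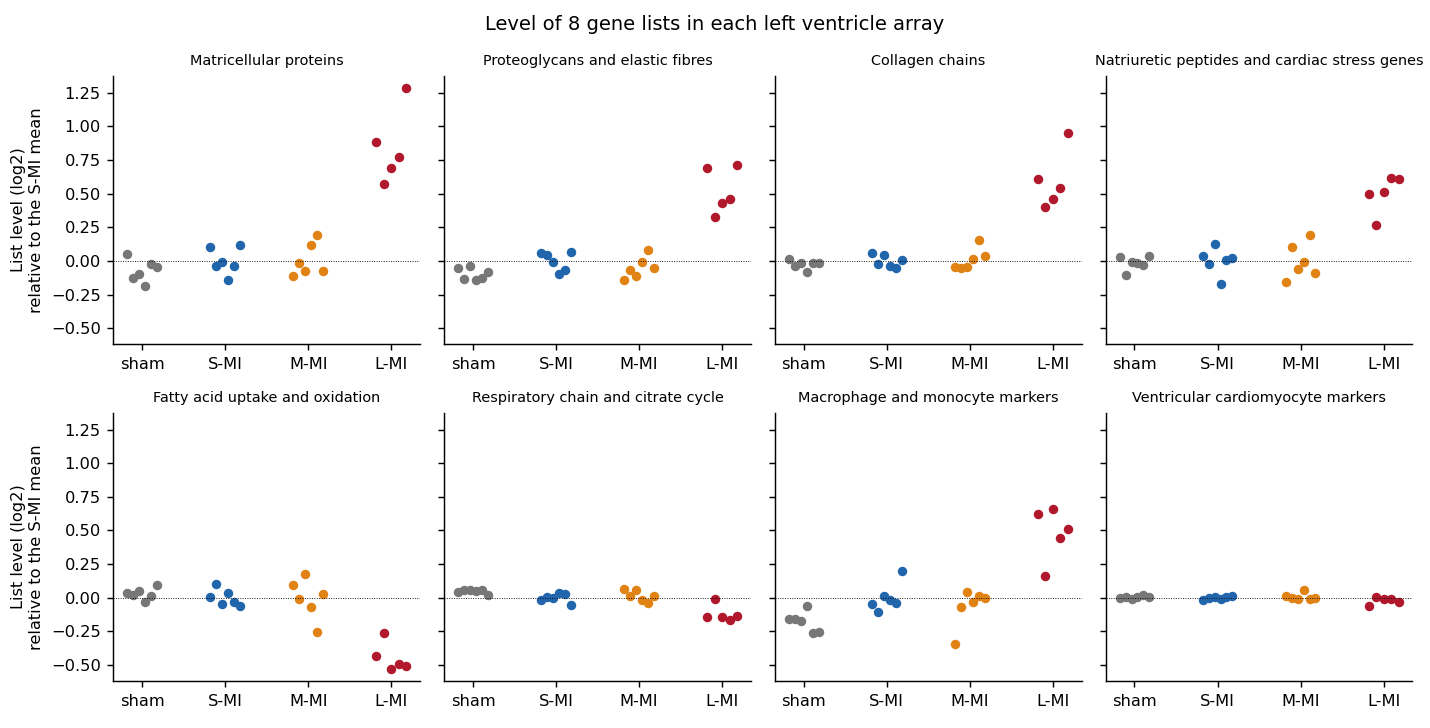
Level of 8 gene lists in each LV array (vertical, log2, relative to the mean of the 6 S-MI arrays) in sham, S-MI, M-MI and L-MI (horizontal, left to right); each point is an array. The L-MI arrays lie at 0.57 to 1.29 for matricellular proteins and at -0.53 to -0.26 for fatty acid genes, clear of the S-MI arrays, whereas ventricular cardiomyocyte markers stay between -0.06 and 0.05 in every group.

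The natriuretic peptides, by which stretched heart muscle signals to kidney and vessels, rose in L-MI with unequal spread. Nppa, atrial natriuretic peptide, was at 13.02, 12.62, 13.35, 13.33 and 13.26 in the L-MI hearts, against 11.32 to 12.03 with a median of 11.45 in the S-MI hearts (log2 fold change 1.58, SE 0.29, adjusted p = 0.00121). Nppb, brain natriuretic peptide, was at 12.90, 12.93, 13.15, 12.99 and 13.08 in the L-MI hearts, against 10.50 to 12.77 with a median of 12.37 in the S-MI hearts. The 5 L-MI arrays of Nppb lay close together, between 12.90 and 13.15, while S-MI replicate 4 was alone at 10.50. The difference was 0.90 (SE 0.27, adjusted p = 0.0412). Without S-MI replicate 4 it was 0.58 (adjusted p = 0.0313), still called. The call was lost without S-MI replicate 2 or 6 or without any of the L-MI arrays, at log2 fold changes of 0.87 to 0.93. Corin, the protease that activates both peptides, showed 0.10 (SE 0.10, adjusted p = 0.609). Edn1, endothelin, a vasoconstrictor, had 0.42 (SE 0.11, adjusted p = 0.0194); its call was lost without S-MI replicate 3 or L-MI replicate 3 or 4, at 0.37, 0.39 and 0.33.

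Nppa is also an atrial marker. Atrial and conduction markers gave 2 rises of 12 measured, Nppa and Hcn4, the pacemaker channel, with a median log2 fold change of 0.29. The list level was 1.01 in L-MI replicate 1, the array with the deviating label text, and 0.15 to 0.30 in the other 4 L-MI arrays, against -0.21 to 0.098 in the S-MI arrays. Of its members, named here after their values were seen, Sln, sarcolipin, was at 9.67, 5.97, 5.54, 6.13 and 5.68 in the L-MI hearts, against 5.36 to 6.06 with a median of 5.78 in the S-MI hearts, and Myl7, the atrial myosin light chain, at 11.91, 8.64, 8.001, 8.58 and 8.03 in the L-MI hearts, against 7.15 to 9.57 with a median of 8.58 in the S-MI hearts. Both genes were highest in L-MI replicate 1, as was Mybphl, and their other 4 L-MI arrays overlapped with the S-MI arrays. Without L-MI replicate 1 the median of the list was 0.042, while Nppa had 1.60 (adjusted p = 0.00357) and Hcn4 1.12 (adjusted p = 0.0419), both still called. The part of atrial tissue in the values of that array was not tested.

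Of 21 natriuretic and cardiac stress genes 8 rose and none fell, with a median of 0.33 and a level of 0.27 to 0.61 in the L-MI arrays, against -0.17 to 0.13 in the S-MI arrays. The count was 6 without S-MI replicates 4 and 5, and 5 rose without L-MI replicate 4 or 5. Ankrd23, a stretch-responsive ankyrin repeat protein of the sarcomere, was at 9.70, 9.07, 9.70, 10.14 and 9.88 in the L-MI hearts, against 7.56 to 8.82 with a median of 8.35 in the S-MI hearts (log2 fold change 1.43, SE 0.24, adjusted p = 4.97e-04). Uchl1, a deubiquitinase, had 0.85 (SE 0.12, adjusted p = 1.12e-04). The myosin switch by which rodent ventricles are known to answer load was not among the calls. Myh6 differed by -0.23 (SE 0.064, adjusted p = 0.0275, under the fold threshold), and Myh7 by 0.0046 (SE 0.064, adjusted p = 0.979), whose sign changed in 9 of 26 alternative fits, all within 0.03 of 0. Among 24 genes of the sarcomere and Z-disc, 1 rose (Myot, myotilin, log2 fold change 0.69, SE 0.19, adjusted p = 0.0227) and 1 fell (Tmod4, a tropomodulin that caps actin filaments, log2 fold change -0.70, SE 0.13, adjusted p = 0.00137). Of all transcript clusters 1.57% rose and 0.911% fell. The call of Myot was lost without S-MI replicate 2 or 5 or L-MI replicate 1, 3 or 4, at log2 fold changes of 0.59 to 0.68.

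Over all transcript clusters 1.57% rose and 0.911% fell. Of 21 genes that move calcium in and out of the sarcoplasmic reticulum, none rose and a single gene fell. This was Trdn, triadin, which anchors the calcium release complex, at 8.79, 9.06, 8.34, 8.09 and 8.63 in the L-MI hearts, against 9.36 to 9.57 with a median of 9.46 in the S-MI hearts (log2 fold change -0.88, SE 0.12, adjusted p = 7.65e-05). Atp2a2, the calcium pump of the reticulum, and Pln, phospholamban, its inhibitor, had log2 fold changes of -0.033 (SE 0.034) and -0.068 (SE 0.034), with adjusted p values of 0.629 and 0.256 from limma. Hrc, which binds calcium in the reticulum, and Jph2, junctophilin, which ties it to the surface membrane, were lower at folds of 1.26 and 1.22, under the threshold (adjusted p = 0.00138 and 0.00233).

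Channels of the surface membrane changed in both directions, 4 of 23 rising and 4 falling, with a median of 0.0084. Cacna1g, a T-type calcium channel of pacemaker and fetal heart cells, was at 8.68, 7.75, 8.37, 8.40 and 8.41 in the L-MI hearts, against 6.85 to 7.20 with a median of 7.08 in the S-MI hearts (log2 fold change 1.26, SE 0.13, adjusted p = 2.30e-06). Cacna1h, its relative, named after its value was seen, had 0.53 (SE 0.15, adjusted p = 0.0351), and its call was lost without S-MI replicate 1, 4 or 6 or L-MI replicate 1 or 3, at log2 fold changes of 0.46 to 0.51. Scn3b, a sodium channel subunit, had 0.83 (SE 0.13, adjusted p = 3.26e-04). Hcn4, the pacemaker channel, was at 9.89, 9.77, 9.93, 10.60 and 9.52 in the L-MI hearts, against 8.26 to 9.59 with a median of 8.71 in the S-MI hearts (log2 fold change 1.11, SE 0.30, adjusted p = 0.0211): S-MI replicate 3, at 9.59, reached into the L-MI range, and the call was lost without S-MI replicate 1 or 2 or L-MI replicate 4, at 1.01, 0.998 and 0.95. Hcn4 is among the atrial and conduction markers given above for L-MI replicate 1.

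Of the channels that fell, Scn4b, another sodium channel subunit, was at 9.20, 8.97, 8.32, 7.89 and 8.74 in the L-MI hearts, against 9.11 to 9.82 with a median of 9.48 in the S-MI hearts (log2 fold change -0.85, SE 0.17, adjusted p = 0.00286). Its highest L-MI array overlapped with the lowest S-MI arrays. Kcnd2, a subunit of the transient outward potassium current, had -0.88 (SE 0.23, adjusted p = 0.018), and its call was lost without L-MI replicate 3 or 4, at -0.81 and -0.75. Kcnj3 and Kcnk3, potassium channels named after their values were seen, had -0.45 (SE 0.08, adjusted p = 9.37e-04) and -0.38 (SE 0.092, adjusted p = 0.0122). Kcnk3 fell under the fold threshold without S-MI replicate 1, 5 or 6 or L-MI replicate 1, 2 or 5, at -0.37 to -0.34. Without S-MI replicates 4 and 5, 3 channel genes rose and 2 fell, and without S-MI replicate 1, 2 rose.

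Genes of fatty acid uptake and oxidation were lower in L-MI. Of 33 measured 16 fell, none rose, and none had a positive log2 fold change, with a median of -0.37 against -0.0088 over all transcript clusters, of which 0.911% fell. The level of the list was -0.53 to -0.26 in the L-MI arrays, against -0.064 to 0.10 in the S-MI arrays. Without S-MI replicates 4 and 5 again 16 fell, and without L-MI replicate 1, 15. From the entry of fuel on, Aqp7, a channel for glycerol, was at 10.26, 10.67, 9.69, 10.27 and 9.75 in the L-MI hearts, against 11.28 to 11.63 with a median of 11.38 in the S-MI hearts (log2 fold change -1.31, SE 0.17, adjusted p = 4.48e-05). Gpihbp1, which holds lipoprotein lipase on the capillary wall, had -0.80 (SE 0.17, adjusted p = 0.00375). Lipe and Plin5, a lipase and a coat protein of lipid droplets, had -0.51 (SE 0.065, adjusted p = 4.46e-05) and -0.76 (SE 0.10, adjusted p = 6.15e-05). In the mitochondrion Decr1, which removes double bonds, was at 8.53, 8.90, 8.22, 8.64 and 8.24 in the L-MI hearts, against 8.92 to 9.66 with a median of 9.48 in the S-MI hearts (log2 fold change -0.93, SE 0.16, adjusted p = 6.81e-04), and Eci1, which moves them, had -0.60 (SE 0.079, adjusted p = 6.15e-05). No L-MI array overlapped with S-MI in these 6 genes.

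Other branches of energy metabolism gave fewer calls. Of 42 genes of the respiratory chain and citrate cycle none passed both thresholds, although 39 of 42 had a negative log2 fold change, with a median of -0.13. Of all transcript clusters 2.48% passed both. Sdha, a subunit of complex II, and Ndufs7, of complex I, passed the adjusted p at folds of 1.17 and 1.14 (adjusted p = 0.00251 and 0.00166). Of 18 genes that break down branched-chain amino acids 2 fell, with a median of -0.24: Bckdha, a subunit of the rate-limiting dehydrogenase, had -0.43 (SE 0.065, adjusted p = 2.34e-04), and Bcat2, the mitochondrial aminotransferase, -0.41 (SE 0.055, adjusted p = 6.70e-05), under the fold threshold without L-MI replicate 1 (log2 fold change -0.37). Of 27 genes of glucose use, Pdk4, a kinase that shuts pyruvate dehydrogenase, fell, at 10.88, 10.98, 10.68, 10.43 and 10.40 in the L-MI hearts, against 11.44 to 11.95 with a median of 11.62 in the S-MI hearts (log2 fold change -0.97, SE 0.20, adjusted p = 0.00375). Pfkp and Pdk3, isoforms of phosphofructokinase and of the same kinase family, rose, with 0.47 (SE 0.081, adjusted p = 6.60e-04) and 0.55 (SE 0.10, adjusted p = 0.00113). Pfkm, the muscle isoform, was lower at a fold of 1.23 (adjusted p = 1.74e-04).

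Of 14 transcriptional regulators of these pathways 1 fell, Pparg (log2 fold change -0.43, SE 0.093, adjusted p = 0.00523), a nuclear receptor best known from adipocytes; without L-MI replicate 3 its fold was under the threshold, at -0.37. Over all transcript clusters the share of falls was 0.911%. All 14 regulators had a negative log2 fold change, with a median of -0.14. Tfam, which maintains mitochondrial DNA, was lower at a fold of 1.23 (adjusted p = 8.75e-04).

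The S-MI hearts were also set beside the sham and M-MI hearts, to place them among the groups. The S-MI arrays enter both differences, S-MI minus sham and L-MI minus S-MI, so the values are given side by side and not correlated. No transcript cluster passed in S-MI against sham by limma (0 of 29214, smallest adjusted p = 0.113, with 1850 at an unadjusted p under 0.05). Over the 459 rises the median of S-MI minus sham was 0.04 and that of M-MI minus sham 0.04, and over the 266 falls these medians were 0.02 and -0.05, all log2. In 283 of the 459 rises the S-MI mean lay above the sham mean, and in 110 of the 266 falls below it. A distance of at least 1.3-fold between S-MI and sham was seen in 8 of the rises and 13 of the falls. Over all transcript clusters the medians of S-MI minus sham and M-MI minus sham were 0.0022 and -0.0029. The same counts over all transcript clusters are not given here, and the S-MI arrays entered the calls. These counts therefore cannot show whether S-MI leans to the side of L-MI.

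Genes in which S-MI lay between sham and L-MI included several of the matrix. Thbs1, a thrombospondin that activates latent TGF-beta, had means of 8.04 in sham, 8.55 in S-MI, 8.23 in M-MI and 9.46 in L-MI. Its call in L-MI against S-MI (log2 fold change 0.91, SE 0.22, adjusted p = 0.0133) was lost without L-MI replicate 4, at 0.76. For Chi3l1, a chitinase-like protein, the means were 7.48, 7.96, 7.70 and 9.17 in the same order, and for Fbn1, fibrillin, 8.31, 8.69, 8.50 and 9.48. The M-MI mean was below the S-MI mean in all 3. These 3 genes were picked for a large distance of S-MI from sham, so this order alone does not show whether means follow infarct size. Scn4b, picked in the same way, was the clearest case of S-MI between sham and L-MI among the falls. Its means were 9.87 in sham, 9.47 in S-MI, 9.58 in M-MI and 8.63 in L-MI.

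In other genes the S-MI mean lay on the far side of the sham mean, so that the difference between L-MI and S-MI was larger than that between L-MI and sham. Nppb, Dusp15, Rxfp1 and Spon1 were picked among the calls for a large distance of this kind. The S-MI arrays enter both the call and the pick, so the pattern in these genes was fixed by the choice. Nppb was at 0.90 against S-MI (0.58 without S-MI replicate 4) and 0.45 against sham, with S-MI minus sham at -0.45. Dusp15, a phosphatase, had 1.12 and 0.71 in the same order, and Rxfp1, the relaxin receptor, 1.04 and 0.63. The call of Rxfp1 was lost without S-MI replicate 4 or 5 or L-MI replicate 1, 3, 4 or 5, at log2 fold changes of 0.93 to 1.04. Spon1, a secreted matrix protein, had 0.66 and 0.38. Cyp2e1 was at -2.54 against S-MI and -2.21 against sham, with S-MI minus sham at 0.33 (SE 0.39, adjusted p = 0.946 from limma). By group medians in place of means, S-MI kept the same side of sham in each of these genes, though for Rxfp1 the medians were nearly equal, 7.49 in S-MI and 7.498 in sham.

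**Figure D5:**
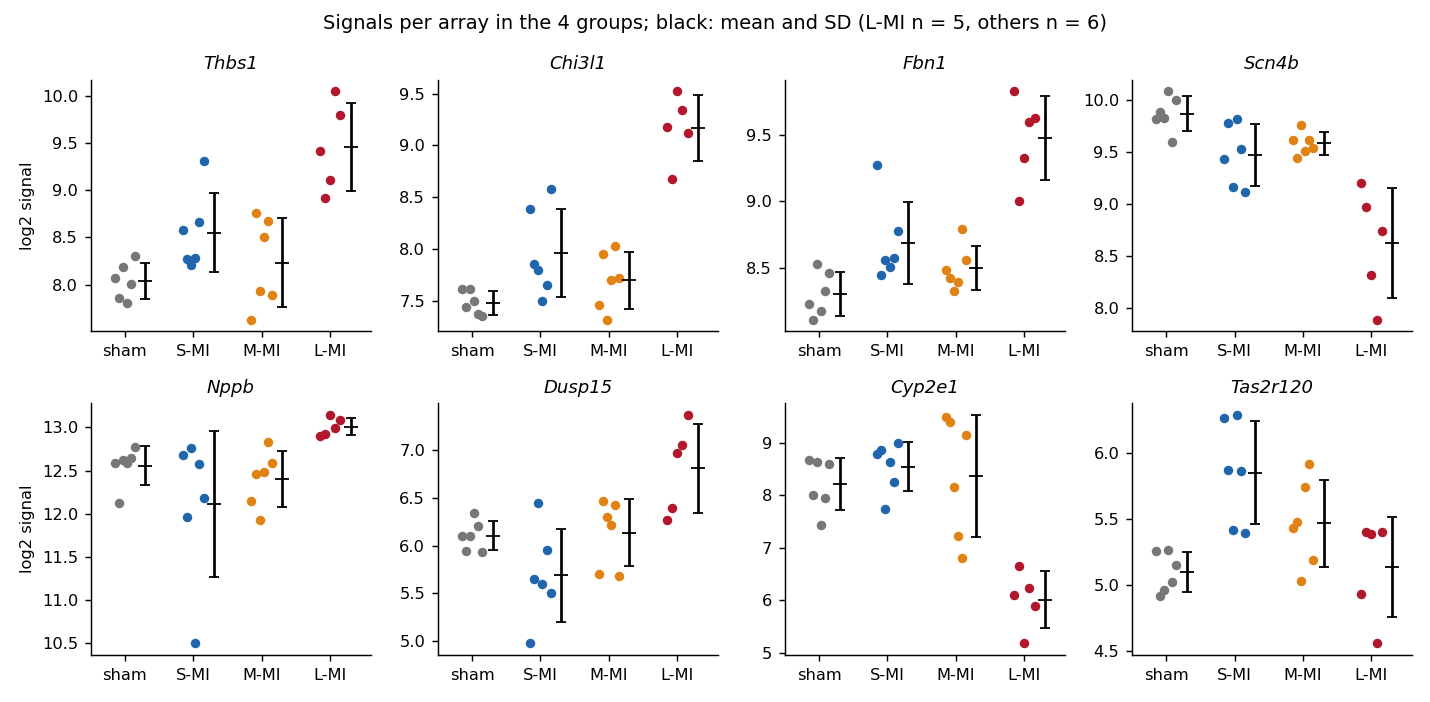
Log2 signals (vertical axes) of 8 genes in sham, S-MI, M-MI and L-MI (horizontal, left to right); each point is an array, the black bar the mean and the whiskers the SD. The S-MI points of Thbs1, Chi3l1 and Fbn1 lie mostly above sham and below L-MI, and all 6 of Tas2r120 lie above the sham points, the lowest level with the highest L-MI points.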

How the data were processed

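RNA from the LV of 23 rats, 1 rat per array, was hybridised to Affymetrix Rat Gene 1.0 ST arrays, and the 11 arrays of mononuclear blood cells in the series were not used here. The log2 signals were deposited by the authors, who normalized the arrays by RMA (robust multi-array averaging) in Partek; versions are not given in the sources used here. RMA brings all arrays to a common distribution, so a shift common to most genes would not be seen, and signals of different genes are not comparable. No array files before normalization were used here, and the build behind the platform annotation is not stated in the sources used here.

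Groups came from the sample titles, and each array is a biological replicate per the labels. The number of arrays limits the precision. A model with a mean for each of the 4 LV groups was fitted to all 29214 transcript clusters with limma 3.58.1 in R 4.3.3, so the spread was shared over 23 arrays, and the L-MI minus S-MI contrast was tested with a moderated statistic, two-sided, with Benjamini-Hochberg adjustment. The SEs rest on this shared spread, while for some genes the L-MI arrays spread more. For Pcp4 the SD was 0.85 in L-MI and 0.23 in S-MI. Calls needed a fold of at least 1.3 and an adjusted p of at most 0.05. The script was tested on simulated data first. Tables were made with pandas 2.3.3 in Python 3.11.15 and figures with matplotlib 3.10.9.

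Symbols were taken from the platform annotation for 15316 transcript clusters and from the study's tables for 176. The other 13722 had no single symbol, among them 317 that carried several, and only transcript clusters with 1 symbol were named. A gene with several transcript clusters was represented by the one with the highest mean. Members named only by the study's tables were left out of the list counts, because those tables were chosen on these arrays. Named genes were the 20 largest rises and 20 largest falls, the 4 members of each list with the smallest p, the 6 genes of each direction with the largest distance of S-MI from sham on either side, the genes the study measured by RT-qPCR, and those a list is named for; others are marked in the text, and some genes that the rule selects are not reported here. The comparison, the lists and the tests were chosen with earlier results of these data known. Promoters came from RefSeq (GRCr8). The comparisons were repeated without each array, with other thresholds, models, weights, filters and normalizations, and with the replicate number as a block.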

Additional observations from a re-analysis of the deposited data

Results flagged for a closer look

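In 21 of 264 group and gene pairs checked, 1 array stood apart from the others of its group by Dixon's criterion, which chance alone passes in about 1 of 20 groups. The values are log2 signals. L-MI replicate 5 was the high array in 5 genes, all of the matrix or of proteases: 10.90 for Col1a1 (nearest other array 9.66), 10.16 for Col1a2 (nearest other array 9.43), 8.74 for Col12a1 (nearest other array 7.68), 8.75 for Mmp9 (nearest other array 6.40) and 7.03 for Mmp13 (nearest other array 4.38). L-MI replicate 2 was the low array in 5 genes that were higher in L-MI, with 10.61 for Lamc1 (nearest other array 10.83), 7.85 for Fzd2 (nearest other array 8.27), 8.27 for Pfkp (nearest other array 8.61), 9.14 for Cybb (nearest other array 9.65) and 9.47 for Cd4 (nearest other array 9.96). It was the high array in 2 genes that were lower in L-MI, with 8.94 for Bckdha (nearest other array 8.75) and 10.04 for Cyp4b1 (nearest other array 9.61), so in all of these it stood on the side of S-MI. L-MI replicate 4 was low at 13.17 for Atp2a2 (nearest other array 13.27), and L-MI replicate 3 was low at 5.08 for Hapln1 (nearest other array 5.99). Among the S-MI arrays, replicate 3 was low in genes of energy metabolism, with 8.92 for Decr1 (nearest other array 9.42) and 12.21 for Sdha (nearest other array 12.29), and high at 3.93 for Mmp13 (nearest other array 3.70). S-MI replicate 4 was low at 10.50 for Nppb (nearest other array 11.96) and high at 9.38 for Bckdha (nearest other array 9.19), replicate 2 was high at 13.35 for Atp2a2 (nearest other array 13.30) and replicate 5 low at 8.60 for Col1a2 (nearest other array 8.71).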

How the results depend on the processing

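The counts of 459 rises and 266 falls stayed within 1.5 times under most alternatives, and moved in the following. With no fold threshold 1055 transcript clusters rose and 1203 fell, and with a fold of at least 1.5, 190 and 64; these follow from the threshold itself. A two-sample test without moderation on the 11 arrays gave 241 and 145. In that test 32 of the genes named lost their call. Among these were Col1a1, Col1a2, Spp1, Ptgs2, Tgfb2, Ephx2, Scn4b, Fbn1 and Cx3cr1. Without S-MI replicates 4 and 5, a choice made after seeing the data, 362 rose and 172 fell. Leaving out 1 array at a time gave 393 to 575 rises and 195 to 377 falls, the highest of both without L-MI replicate 2. Myh7, at 0.0046 in the fit reported, turned negative with array weights (-0.014), median centring (-0.015), the replicate block (-0.011), without S-MI replicates 4 and 5 (-0.023), and among the fits without 1 array, which ranged from -0.017 to 0.023. Same-numbered L-MI and S-MI arrays had correlations of their deviations between -0.25 and 0.079, and arrays of different numbers between -0.18 and 0.27. These values cannot tell whether arrays of the same number shared a batch. With the number as a replicate block 462 transcript clusters rose and 248 fell, and of the genes named Prg4, Rxfp1, Kcnk3, Cacna1h and Acan lost their call. Without the dimmest 30% of the transcript clusters 450 rose and 258 fell. Of the genes named, 58 of 109 with a call kept it under all 26 alternatives.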

Other observations

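Of 14 cartilage and tendon markers 6 rose and none fell, with a median log2 fold change of 0.21, and 3 rose without S-MI replicates 4 and 5. Beside Fmod and Comp these were Chad, chondroadherin (log2 fold change 0.88, SE 0.21, adjusted p = 0.0123), Acan, the proteoglycan aggrecan (log2 fold change 0.62, SE 0.19, adjusted p = 0.0435), Hapln1, which links aggrecan to hyaluronan (log2 fold change 0.72, SE 0.16, adjusted p = 0.00523), and Col2a1, the collagen of cartilage (log2 fold change 0.45, SE 0.10, adjusted p = 0.00416). Chad and Acan are named here after their values were seen. The call of Acan was lost without any 1 of 8 of the 11 arrays, the exceptions being S-MI replicate 3 and L-MI replicates 1 and 3, and its log2 fold change ranged over the 11 fits from 0.37 without L-MI replicate 5 to 0.82 without L-MI replicate 3. The signals of both were uneven among the L-MI hearts. Acan was at 6.34, 6.94, 5.92, 6.77 and 7.70 in the L-MI hearts, against 5.93 to 6.34 with a median of 6.12 in the S-MI hearts, and Chad at 7.84, 6.93, 6.14, 7.01 and 7.56 in the L-MI hearts, against 6.11 to 6.29 with a median of 6.23 in the S-MI hearts. L-MI replicate 3 was the lowest L-MI array of both and lay among or below the S-MI arrays. Of 6 lymphatic endothelial markers 2 rose, Lyve1 and Reln, the secreted protein reelin (log2 fold change 0.53, SE 0.078, adjusted p = 1.91e-04), with a list level of 0.20 to 0.31 in the L-MI arrays, against -0.055 to 0.076 in the S-MI arrays.

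Tas2r120 and Tas2r121, genes of bitter taste receptors, were lower in L-MI than in S-MI, with -0.71 (SE 0.18, adjusted p = 0.0168) and -0.87 (SE 0.21, adjusted p = 0.0113). Their S-MI means lay above sham, by 0.75 and 0.65 log2, and their L-MI means differed from sham by 0.039 and -0.23. Both are among the genes picked for a large distance of S-MI from sham, so that distance was fixed by the choice. The call of Tas2r120 was lost without L-MI replicate 1 or 4, at -0.66 and -0.57, and both calls were lost without S-MI replicates 4 and 5, at -0.60 and -0.79. Both genes belong to a family of similar sequences, so the probes may not tell them apart.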
